A study of Rattus norvegicus with 6 samples.

Results

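The 9 spliceosomal snRNA families of the deposited small RNA table, U1, U2, U4, U5, U6, U11, U12, U4atac and U6atac, were described in rat primary sertoli cells with and without 4-nonylphenol (4-NP). The families were chosen by their Rfam accession (RF00003, RF00004, RF00015, RF00020, RF00026, RF00548, RF00007, RF00618 and RF00619), and all 9 were found among the 2359 rows that name a small RNA. Of these families, 5 belong to the major spliceosome (U1, U2, U4, U5 and U6) and 4 to the minor spliceosome (U11, U12, U4atac and U6atac). Sertoli cells, the somatic cells that nourish germ cells in the seminiferous tubule, were prepared from the testes of Sprague-Dawley rats aged 5 to 10 days, cultured in medium with fetal bovine serum and used at passage P2. The 3 control samples received 0 mM 4-NP and the 3 treated samples received 0.5 mM 4-NP, a xenoestrogen, and all were collected at 24 h. No source used here says whether the replicates came from separate animals or cultures, so the p values measure the spread between these samples, which may be technical. The reads come from RNA of 18 to 30 nt cut from a gel, so they count short fragments of snRNAs and not the full-length molecules.

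Spliceosomal snRNAs are short, stable nuclear RNAs that work as RNA-protein particles to remove introns from pre-mRNA. In the major spliceosome, U1 pairs with the donor splice site and U2 with the branch site, U4 delivers U6 in an inactive pairing, U6 forms the catalytic centre and U5 holds the exons for joining. In the minor spliceosome, which removes a rare class of introns, U11 and U12 take the places of U1 and U2, and U4atac and U6atac those of U4 and U6, while U5 is shared by both machines. U6 and U6atac are made by RNA polymerase III and carry a ring of Lsm proteins, and the other members are made by polymerase II and carry a ring of Sm proteins.

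Library sizes were the mature miRNA reads of each sample, and levels are given as reads per 1000000 of these (CPM). These sums were 22291892 to 23426742 in the controls and 20023200 to 22130929 after 4-NP, so 3 reads, taken as the most that a count of 0 allows, are 0.128 to 0.150 CPM. Such limits, and the intervals below, cover counting error only. The differences were tested across the whole table with edgeR's two-sided quasi-likelihood test and Benjamini-Hochberg adjustment over the 1285 rows that passed its filter on low counts. Of the 9 families, 7 passed this filter, each with at least 22 reads in every sample, and U12 and U6atac did not. Over all rows tested the median log2 fold change was 0.27, and with TMM scaling on the small RNAs other than miRNAs (TMM scaling on non-miRNA rows) it was -0.15. The changes of U11, U5, U2, U6 and U4atac are therefore also given relative to the median of the same fit.

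As a check of the cell type, the gonadal miR-202-5p had 805 to 1195 CPM in the controls and 698 to 792 CPM after 4-NP, whereas miR-202-3p had at most 6.14 CPM and was at 0 in 4-NP replicate 3. Markers of other cells were present too. Their summed levels in the controls and after 4-NP were 120518 to 136205 and 88367 to 96674 CPM for smooth muscle or myoid cells (miR-143-3p fell and miR-145-5p did not pass the test) and 6325 to 7615 and 3234 to 3805 CPM for endothelium (2 of 2 fell). They were 10.95 to 40.3 and 59.1 to 628 CPM for erythroid cells (miR-451-5p rose, and miR-144-5p was at 0 or 1 read in each sample). The 3 male germ cell markers summed to 132 to 144 and 122 to 149 CPM (2 of 3 rose), and the 3 myeloid markers to 8.05 to 10.5 and 8.36 to 14.1 CPM (adjusted p of 0.163 to 0.505 by edgeR). The part of these cells in the snRNA results was not tested, and in bulk RNA fewer cells of a type cannot be told apart from less RNA per cell.

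Fragments of U11 and U5 rose after 4-NP, by 11.2-fold and 5.59-fold. Those of the other 5 tested families did not pass the test, with fold changes of 0.947 for U4atac to 2.58 for U4. With 2 families higher and 0 lower, the members stand beside 12.3% of all rows tested that were higher, or 15.2% of the rows other than mature miRNAs, and 9.42% of all rows that were lower. At an unadjusted p under 0.05, 4 of 7 families were higher and 0 lower in edgeR, and 3 of 8 higher and 0 lower in DESeq2. The share of all rows at that threshold is not given here, so nothing is drawn from these counts. At the thresholds of the study, a fold change over 2 with an unadjusted p under 0.05, the same 2 families were higher, U5 and U11, against 12.8% of all rows. The groups did not overlap, with 4-NP higher, for 4 of the 7 tested families (U1, U2, U5 and U11), against 28.6% of all rows tested and 35.2% of those other than mature miRNAs. Across the 7 families the median log2 fold change was 0.89. In the table as a whole, 158 rows were higher and 121 lower, and this balance depends on the scaling, with 87 higher (6.77%) and 218 lower (17.0%) under TMM scaling on non-miRNA rows and 154 higher (9.5%) and 204 lower (12.6%) in DESeq2. Of the members, 1 was then higher under the former (U11) and 2 in DESeq2. With TMM scaling on the mature miRNAs 3 members were higher, against 14.1% of all rows, and without a filter on low counts 1 (U11), against 5.13%.

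**Figure D1:**
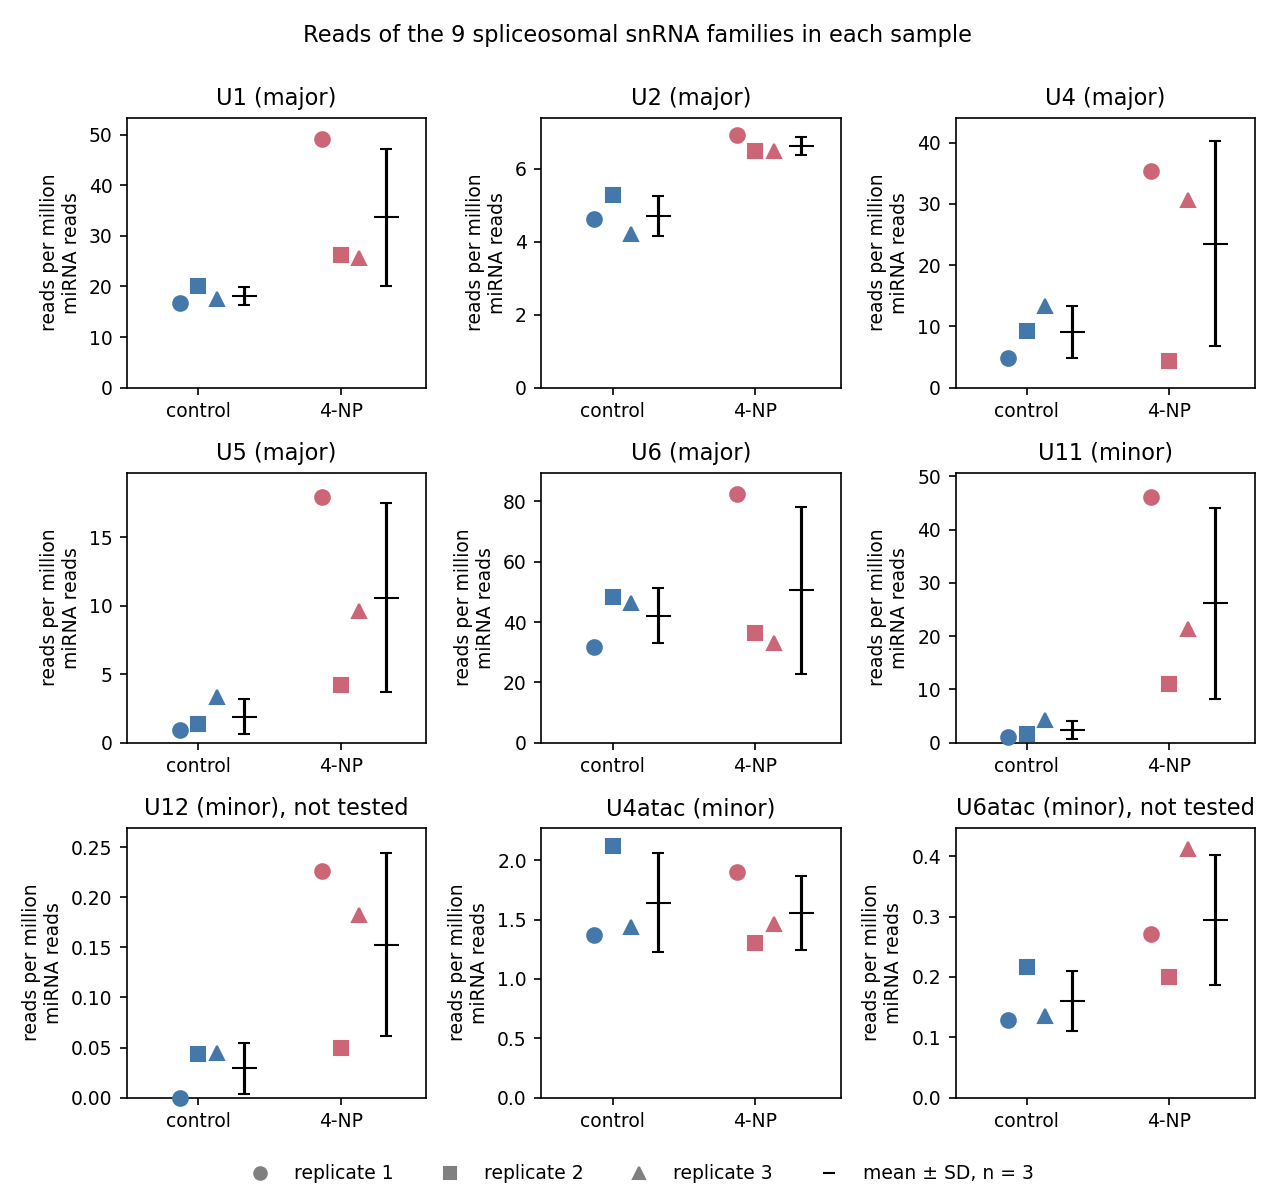
Reads of each family per 1000000 mature miRNA reads (vertical axes, linear and from 0, with a scale of their own per panel) in the 3 control samples (blue) and the 3 4-NP samples (red); symbols give the replicate and bars the mean ± SD. U11, U5, U1 and U2 lie higher in every 4-NP sample than in any control, while U4, U6 and U4atac overlap and U12 and U6atac rest on at most 9 reads.

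U11 base-pairs with the donor splice site of minor introns. It had 24, 39 and 96 reads in control replicates 1, 2 and 3 and 1019, 220 and 469 reads in 4-NP replicates 1, 2 and 3, which is 1.02, 1.69 and 4.31 CPM against 46.0, 10.99 and 21.4 CPM. The lowest treated sample was thus above the highest control, and both groups varied widely within themselves. The means were 2.34 ± 1.74 and 26.2 ± 18.0 CPM (SD, n = 3 each), and the log2 fold change was 3.48 (standard error, SE, of 0.74 and adjusted p of 0.0195 by edgeR), or 3.21 above the median of all rows. Under TMM scaling on non-miRNA rows its value was 2.99, with an adjusted p of 0.0210 by edgeR. The call was lost without control replicate 1 (adjusted p = 0.0697), control replicate 2 (0.0837) or 4-NP replicate 3 (0.0516), at log2 values of 3.12, 3.29 and 3.61 by edgeR. The call was also lost with the replicate number as a block (log2 value 3.40, adjusted p = 0.0705 in edgeR). It was kept without 4-NP replicate 1 or control replicate 3, where the log2 value moved to 2.79 and 4.26.

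U5 aligns the exons in both spliceosomes. It had 22, 32 and 75 reads in control samples and 397, 85 and 211 reads after 4-NP, in order of replicate, or 0.939, 1.39 and 3.36 CPM against 17.9, 4.25 and 9.64 CPM. Control replicate 3 was the highest control and 4-NP replicate 2 the lowest treated sample for U5 as for U11, and for U5 the gap between them was narrow. The log2 fold change was 2.48 (SE 0.68 and adjusted p of 0.0450 by edgeR), or 2.21 above the median of all rows. This call was lost with TMM scaling on non-miRNA rows (log2 fold change 2.00, adjusted p = 0.0639 in edgeR), without a filter on low counts (adjusted p = 0.0526) and without control replicate 1 or 2 or 4-NP replicate 1 or 3 (adjusted p of 0.0940 to 0.147). With the replicate number as a block it was lost as well (log2 value 2.39, adjusted p = 0.107 in edgeR). The log2 value of U5 was 1.87 without 4-NP replicate 1, and 3.19 without control replicate 3, where the call was kept. DESeq2 gave adjusted p values of 0.00603 for U5 and 2.03e-05 for U11.

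U1, which recognizes the donor site of major introns, had 16.7, 20.1 and 17.6 CPM in the controls and 49.2, 26.2 and 25.5 CPM after 4-NP. All 3 treated samples were above the controls, and 4-NP replicate 1 stood apart from the other two. The log2 fold change was 0.89 (SE 0.29 and adjusted p of 0.0789 by edgeR), and only with TMM scaling on the mature miRNAs was the adjusted p under 0.05 (0.0489, of 17 other fits). U2, its partner at the branch site, had 4.61, 5.28 and 4.22 CPM in the controls and 6.91, 6.49 and 6.49 CPM after 4-NP. The treated samples were close to each other and above each control, with a log2 fold change of 0.49 (SE 0.17 and adjusted p of 0.0915 by edgeR). Under TMM scaling on non-miRNA rows the value for U2 was 0.08. Relative to the median of all rows in the same fit, U2 was at 0.22 in the main fit and 0.23 under this scaling.

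U4 and U6 enter the major spliceosome as a base-paired unit. U4 had 113, 212 and 296 reads (4.82, 9.18 and 13.3 CPM) in the controls and 783, 87 and 672 reads (35.4, 4.35 and 30.7 CPM) after 4-NP. In treated replicates 1 and 3 it was above all controls, and in treated replicate 2 it was below all of them. Its log2 fold change was 1.37 (SE 0.76 and adjusted p of 0.237 by edgeR). Without 4-NP replicate 2 it was 1.86 (SE 0.43 and adjusted p of 0.0380 by edgeR), and this was the only 1 of 17 other fits in which U4 passed. Without 4-NP replicate 1 the log2 value of U4 was 0.95 (adjusted p of 0.483 by edgeR). U6 had 31.7, 48.4 and 46.3 CPM in the controls and 82.4, 36.3 and 33.0 CPM after 4-NP, so that treated replicates 2 and 3 lay among the controls. The log2 fold change of U6 was 0.26 (SE 0.39 and adjusted p of 0.663 by edgeR), near the median of all rows, and its sign turned under TMM scaling on non-miRNA rows (-0.19) and without 4-NP replicate 1 (-0.28). Measured from the median of all rows, U6 was at -0.01 in the main fit and -0.04 under this TMM scaling.

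The other members of the minor spliceosome were rare. U4atac, the counterpart of U4, had 32, 49 and 32 reads in control samples and 42, 26 and 32 reads after 4-NP, or 1.37, 2.12 and 1.44 CPM against 1.90, 1.30 and 1.46 CPM. The groups overlapped, with a log2 fold change of -0.08 (SE 0.28 and adjusted p of 0.867 by edgeR) that changed sign without control replicate 2 (0.15) or 4-NP replicate 2 (0.03). U12, the counterpart of U2, was seen with 0, 1 and 1 reads in control and 5, 1 and 4 reads in 4-NP samples. U6atac, the counterpart of U6, had 3, 5 and 3 reads and 6, 4 and 9 reads. Both were at or near the limit of 3 reads, and no difference was detectable at this depth. When the filter on low counts was left out, the adjusted p was 0.333 for U12 and 0.496 for U6atac in edgeR. U11 was thus the minor family that passed the test, while U12, with which it forms a particle, had at most 5 reads in any sample.

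**Figure D2:**
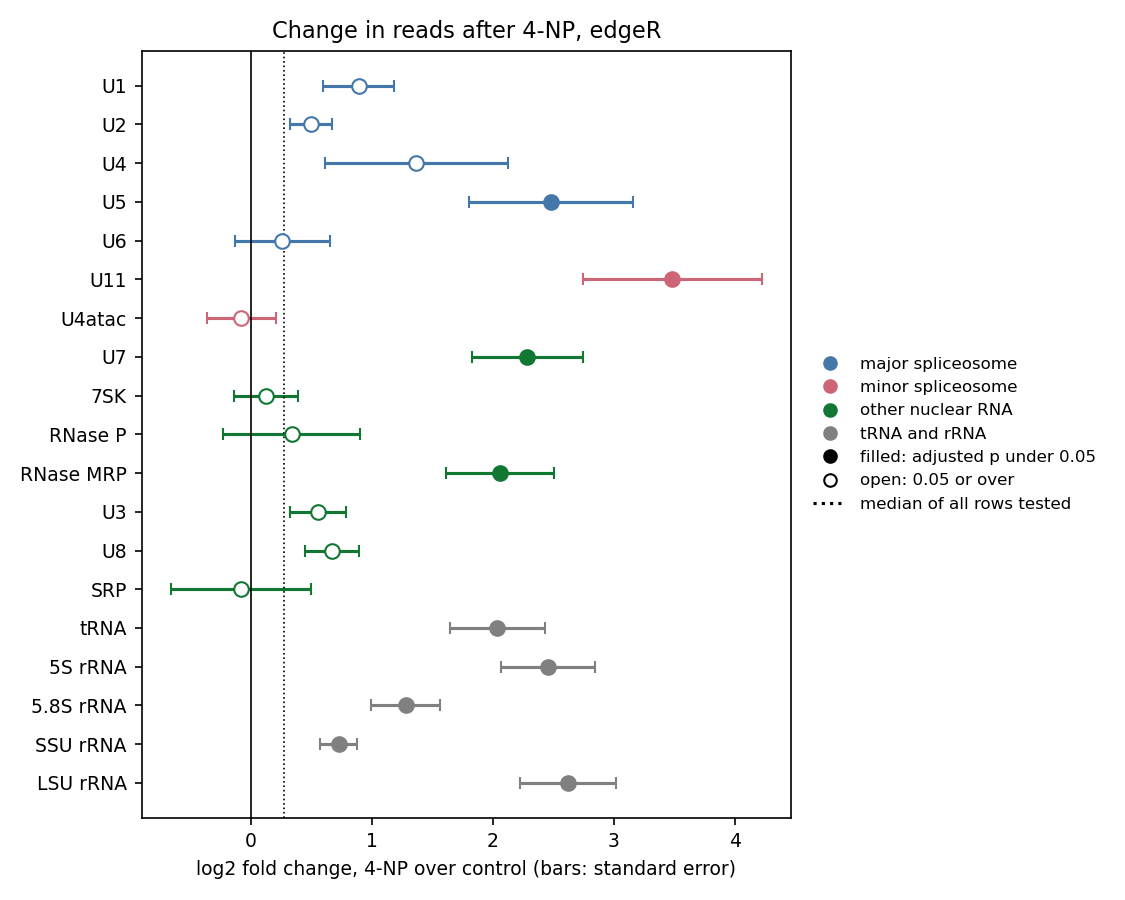
Log2 fold change of 4-NP over control samples (horizontal axis; points are edgeR estimates, bars standard errors) for the 7 tested families, 7 related RNAs (named other nuclear RNA in the legend) and 5 tRNA and rRNA families. U11 (3.48) and U5 (2.48) are the filled points among the members, U6 (0.26) lies on the dotted median of all rows, and all 5 tRNA and rRNA points are filled.

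The summed reads of the 9 families were 61.3, 88.5 and 90.7 CPM in the controls and 240.3, 90.0 and 129 CPM in 4-NP replicates 1, 2 and 3. The groups overlapped, since 4-NP replicate 2 was below control replicate 3. The means were 80.2 ± 16.4 and 153 ± 78.0 CPM (SD, n = 3 each), a ratio of 1.91 that fell to 1.37 without 4-NP replicate 1. This ratio was 1.39 under TMM scaling on non-miRNA rows, and 1.46 with medians of the samples in place of means. No p is given for sums or ratios over the chosen families. Among the treated samples, replicate 1 had the highest level for 8 of the 9 families (for U6atac it was replicate 3), and replicate 2 had the lowest for 6. Among the controls, replicate 1 had the lowest level for 8 families, all except U2. These fragments made up 0.0482 to 0.0629% of all reads on small RNAs other than miRNAs in the controls and 0.0642 to 0.162% after 4-NP.

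Major and minor families were compared within each sample, where the library size has no part. The minor families had 59, 94 and 132 control reads beside 1377, 1950 and 1889 reads of the major families. After 4-NP they had 1072, 251 and 514 reads beside 4245, 1552 and 2306. This is 4.28, 4.82 and 6.99 minor reads per 100 major reads in control and 25.3, 16.2 and 22.3 in 4-NP samples, with means of 5.36 ± 1.43 and 21.2 ± 4.63 (SD, n = 3 each) and no overlap. The ratio of the means was 3.96, and leaving out any 1 sample gave 3.59 to 4.67. As a share of all spliceosomal reads, the minor families held 4.11% (Wilson interval at the 95% level 3.20 to 5.26) to 6.53% (5.53 to 7.69) in the controls and 13.9% (12.4 to 15.6) to 20.2% (19.1 to 21.3) after 4-NP. The separation rested on U11. With U11 left out, which was tried after its values were seen, there were 2.54, 2.82 and 1.91 minor reads per 100 major reads in control and 1.25, 2.00 and 1.95 in 4-NP samples. The groups then overlapped, with the treated mean lower, at 0.715 of the control mean. Without U5, which serves both spliceosomes, the ratio of the means was 4.20.

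**Figure D3:**
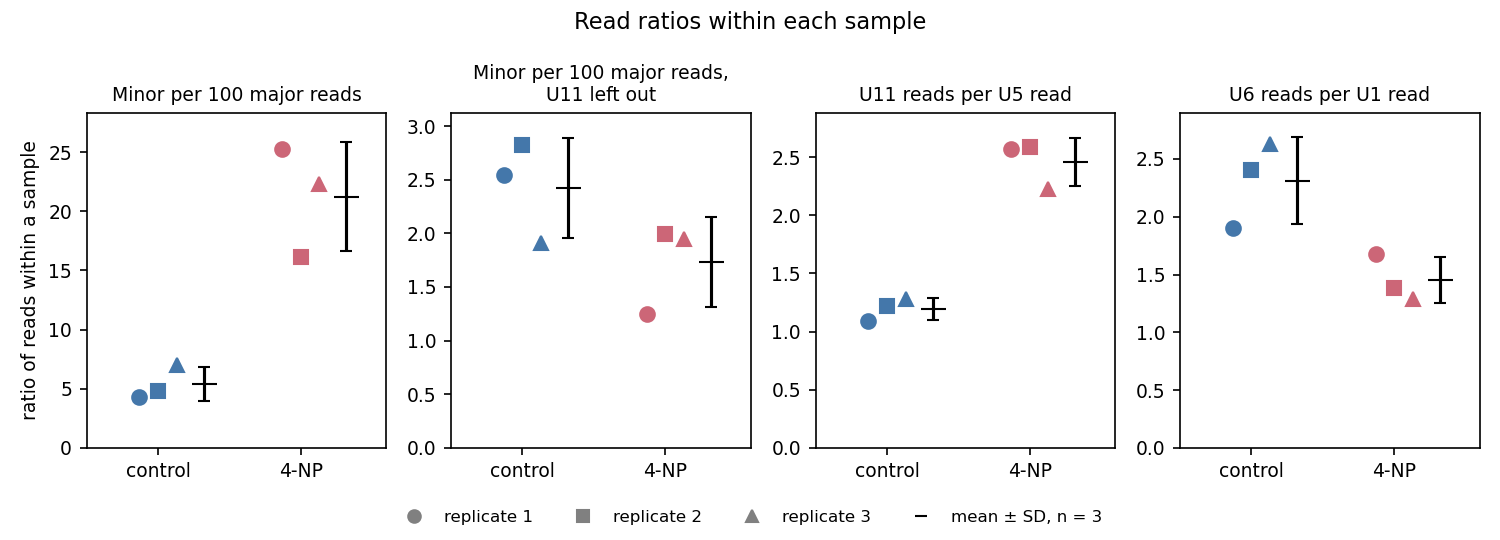
Ratios of reads within each sample (vertical axes from 0) for minor per 100 major families, the same without U11, U11 per U5 and U6 per U1, in the 3 control (blue) and the 3 4-NP samples (red) with mean ± SD. The minor-to-major ratio is 4.28 to 6.99 in the controls and 16.2 to 25.3 after 4-NP, and without U11 the groups overlap.

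Ratios of 1 family to another within a sample were compared in the same way, as a description. Of 13 such ratios the groups overlapped in 7, and 4-NP was higher in 3 and lower in 3. Several ratios share a family, so they are not independent, and these counts have no reference share beside them. Reads of U11 per read of U1, its counterpart at the donor site, were 0.0614, 0.0839 and 0.245 in the controls and 0.936, 0.420 and 0.839 after 4-NP, with no overlap. U11 per read of U5, a pair chosen after the values were seen, was 1.09, 1.22 and 1.28 in the controls and 2.57, 2.59 and 2.22 after 4-NP. While the levels of U11 spanned a wide range within each group, its ratio to U5 therefore stayed in a narrow range within each group. Reads of U4 per read of U6 were 0.152, 0.189 and 0.287 in the controls and 0.430, 0.120 and 0.931 after 4-NP, so that the treated samples lay on both sides of the controls. U6 per read of U1 was 1.90, 2.41 and 2.63 in the controls and lower in each treated sample, at 1.67, 1.39 and 1.29. U4atac per read of U1 was 0.0818, 0.105 and 0.0816 in the controls and also lower in each treated sample, at 0.0386, 0.0496 and 0.0572. U1, the divisor in both ratios, had a higher CPM in each treated sample than in any control, while the CPM of U6 and of U4atac overlapped. The other 2 that separated, U11 per read of U12 and U4atac per read of U6atac, rest on at most 9 reads of U12 or U6atac, and control replicate 1 had no read of U12. U1 per read of U2 was 3.62 to 4.17 in the controls and 7.12, 4.03 and 3.94 after 4-NP, with overlap. U5 per read of U1 (0.0563 to 0.191 in control and 0.162 to 0.377 in 4-NP samples) and U4 per read of U1 (0.289 to 0.755 and 0.166 to 1.20) overlapped too. So did the counterpart pairs U4atac per read of U4 (0.108 to 0.283 and 0.0476 to 0.299), U12 per read of U2 and U6atac per read of U6.

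The make-up of the spliceosomal reads was also described by sample. U6 held 51.7, 54.7 and 51.1% of them in the controls and 34.3, 40.3 and 25.6% in 4-NP replicates 1, 2 and 3, although the CPM of U6 did not separate the groups. U11 went from 1.67, 1.91 and 4.75% to 19.2, 12.2 and 16.6%, and U5 from 1.53, 1.57 and 3.71% to 7.47, 4.71 and 7.48%. The shares of U1 overlapped, at 19.4 to 27.2% in the controls and 19.8 to 29.1% after 4-NP. The share of U4 was 7.87, 10.4 and 14.6% in the controls and 14.7, 4.83 and 23.8% after 4-NP. These are shares of reads, not corrected for the length of each RNA, and were not used to rank the families by abundance. By polymerase, U5 and U11, the members that rose, are both polymerase II products with a Sm ring, and 6 of the 7 members of this kind were tested. Of the polymerase III products only U6 was tested, so the 2 kinds could not be compared.

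**Figure D4:**
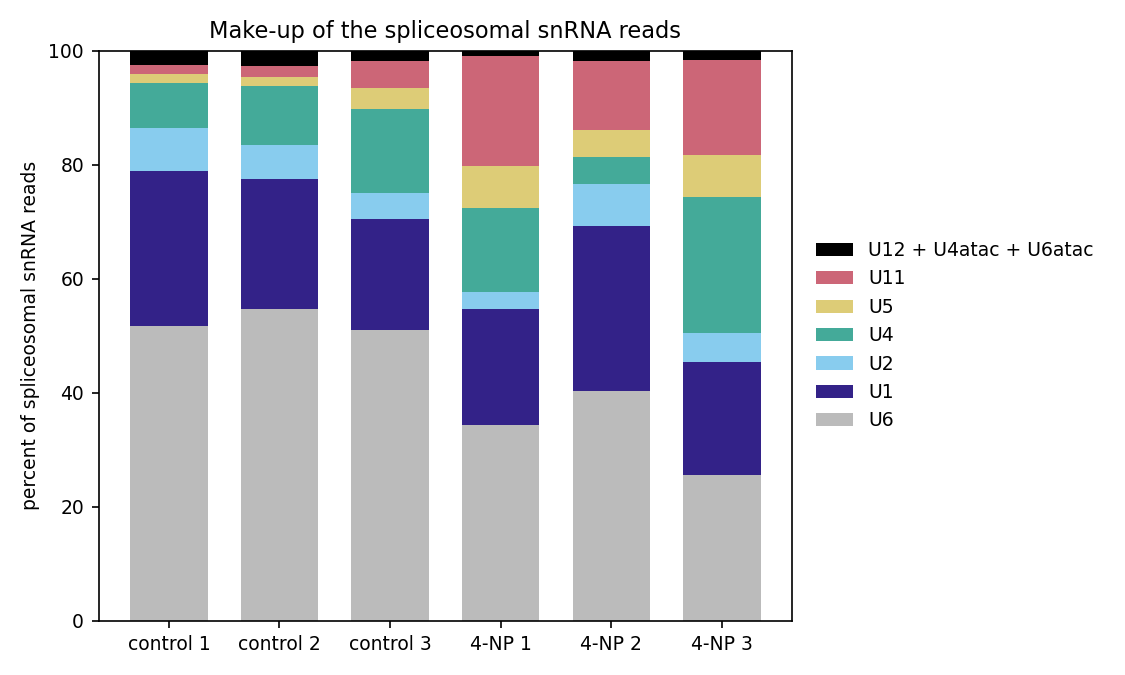
Share of each family in the spliceosomal snRNA reads of each sample (vertical axis in percent; stacked bars add to 100). U6 takes 51.1 to 54.7% of the control bars and 25.6 to 40.3% of the 4-NP bars, and U11 widens from 1.67 to 4.75% to between 12.2 and 19.2%.

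Related RNAs outside the spliceosome were read from the same fit. Of 7 such families in the table, 2 were higher and 0 lower in edgeR and in DESeq2. Of all rows, 12.3% were higher in edgeR and 9.5% in DESeq2. At an unadjusted p under 0.05, 3 of the 7 were higher and 0 lower in each, again without a share of all rows beside it. The median log2 fold change of the 7 was 0.56. U7, the Sm-class snRNA that directs processing of histone mRNA ends, had 3.24, 3.42 and 5.56 CPM in the controls and 28.6, 9.39 and 21.6 CPM after 4-NP, with a log2 fold change of 2.28 (SE 0.46 and adjusted p of 0.0153 by edgeR). RNase MRP, which cuts pre-rRNA, had 2.06 (SE 0.44 and adjusted p of 0.0201). The nuclear 7SK RNA, a regulator of transcription elongation, had 0.12, and the others (RNase P, SRP and the nucleolar U3 and U8) had -0.08 to 0.67 and did not pass. Of the 16 small Cajal body RNAs, the guides that direct modification of snRNAs, 5 were tested, with 0 higher and 1 lower in edgeR and in DESeq2 and a median of 0.10 (higher at an unadjusted p under 0.05 for 1 in edgeR and 0 in DESeq2). The lower was small Cajal body RNA 7, from 16.3, 18.7 and 14.9 CPM to 8.04, 7.09 and 8.95 CPM (log2 fold change -1.05, SE 0.18 and adjusted p of 0.00920 by edgeR).

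Fragments of tRNA and rRNA were higher after 4-NP as well. All 5 of these families passed the test, with a median log2 fold change of 2.04 and values of 0.73 for the small subunit, 1.28 for 5.8S, 2.04 for tRNA, 2.46 for 5S and 2.62 for the large subunit rRNA. In 4-NP replicates 1, 2 and 3, tRNA had 2099, 781 and 1672 CPM against 282 to 471 CPM in the controls. Replicate 2 was thus the lowest treated sample for tRNA, and also for 5.8S (4861, 2816 and 5193 CPM), as for U11, U5 and U4. It was the highest for the large subunit rRNA (203, 513 and 239 CPM). For 5S (24.7, 22.8 and 14.3 CPM) and the small subunit rRNA (1825, 1761 and 1313 CPM) replicate 3 was the lowest treated sample. The 139 tested snoRNA rows, which include the U3, U8 and small Cajal body RNAs above, had a median of 0.67. Of them 14 were higher and 1 lower (small Cajal body RNA 7), which is 10.1% higher against 12.3% of all rows. The part of broader fragment changes in the rise of U11 and U5 was not tested, and counts of short fragments cannot tell a change in breakdown from a change in the amount of the RNA.

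Among 278 rows that are not members and had a mean of at least 1000 reads, the row most like the summed members over the 6 samples was the nucleolar U8 RNA. Its Pearson r of log2(CPM + 1) with that sum was 0.960, and it had 32.5, 42.0 and 43.2 CPM in the controls and 76.1, 48.7 and 62.5 CPM after 4-NP. The next were the authors' predicted novel_pir341 (r = 0.947) and novel_pir382 (r = 0.944). These correlations describe 6 libraries that share their size factor and fall into 2 groups, and no p was computed.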

How the data were processed

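Small RNA of 3 control and 3 4-NP samples was sequenced by the authors. They deposited 1 table of raw read counts per small RNA, after a FastQC check of the reads. The submitters' processing notes name HISAT2 and DESeq2. The rule that assigned reads to Rfam families and the genome build are not given in the sources used here. Of 1013 snRNA genes in the GRCr8 gene table, 86 have a symbol for U6 copies. A further 906 have a symbol that starts with LOC and names no family, so the number of U6 copies may be higher. A family's reads cannot be assigned to a gene copy. A further 6 columns, named for molecular identifiers, were not used because their meaning is not stated. The 4 rows of totals (exon 1.72 to 2.46%, intron 0.791 to 1.75%, intergenic 0.431 to 0.718% and repeat 0.558 to 1.13% of all reads) entered no library size or test.

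Counts were tested in R 4.3.3 with edgeR 4.0.16 (filterByExpr, quasi-likelihood F test, no replicate block, common dispersion 0.154), with the mature miRNA sums as library sizes. CPM was computed from the deposited counts. Standard errors are the log2 fold change divided by the root of F. The procedure was tested on simulated data in which every row had the common dispersion. A spread that differs between rows was therefore not simulated. DESeq2 1.42.0, limma 3.58.1, other scalings and filters, a replicate block and the omission of each sample served as alternatives. The members, lists and tests were chosen with earlier results of these data known. The named rows are the 9 families, the related families, small Cajal body RNAs and the 3 rows most like the summed members. Telomerase RNA was chosen as a related family too, but its Rfam family had no row.

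Replicates of a group differed by more than counting error (chi-square per degree of freedom of 219 to 1685).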

Additional observations from a re-analysis of the deposited data

How the results depend on the processing

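The number of snRNA families with an adjusted p under 0.05 was 2 in the main analysis. It was 1 (U11) under TMM scaling on non-miRNA rows and 1 (U11) without a filter on low counts, and it ranged from 0 to 3 when each sample was omitted in turn. It was 0 in edgeR without control replicate 1, control replicate 2 or 4-NP replicate 3, where 2, 4 and 4 families had an unadjusted p under 0.05. With the replicate number as a block it was 0 in edgeR (3 families had an unadjusted p under 0.05; adjusted p = 0.0705 for U11 and 0.107 for U5), while DESeq2, which had no block, gave 2. At an adjusted p under 0.05, 4.75% of all rows were higher with the block and 6.03 to 11.1% with 1 sample omitted. The share of all rows at an unadjusted p under 0.05 is not given here, so the counts of families at that threshold have no share beside them. Deviations of same-numbered control and 4-NP samples correlated at -0.17 to 0.089, and those of samples with other numbers at -0.072 to 0.22. With 3 samples per group these values cannot decide whether the numbers mark paired samples. The block took the calls over all rows from 279 to 129, and omission of control replicate 1 or 2 took them to 173 or 182. U11 passed in 13 and U5 in 10 of 17 other fits, with log2 fold changes of 2.79 to 4.26 and 1.87 to 3.19. The value of U6 was -0.19 under TMM scaling on non-miRNA rows and -0.28 (without 4-NP replicate 1) to 0.49 with 1 sample omitted, and that of U4atac -0.50 under the same scaling and -0.25 to 0.15 with 1 sample omitted (0.15 without control replicate 2 and 0.03 without 4-NP replicate 2). Relative to the median of all rows in the same fit, U4atac was at -0.35 both in the main fit and under TMM scaling on non-miRNA rows. The ratio of minor to major reads, 4-NP over control, was 3.96 in the main analysis, 3.06 without U6 and U6atac, 2.97 without U6 and 0.715 without U11. The last, the omission of U5, the omission of miR-21-5p from the library sizes and the study's thresholds were added after the data were seen. The cause of these differences was not tested.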

Other observations

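Of the 12 rows that the table types as snRNA, 3 are not members: U7, and a pair named for organisms other than the rat. The SmY family, known from nematodes, had 6157, 7508 and 7444 reads in control and 12055, 2899 and 6380 reads in 4-NP samples, and its log2 fold change was 0.09 (SE 0.45 and adjusted p of 0.903 by edgeR). Its mean of 7074 reads per sample was above that of U6, at 1028 reads, the member with the most reads. The row for U2 of Giardia had 1 read in 1 sample. Family names in this table thus do not all name RNAs of the rat. How reads came to the SmY row, and whether member rows hold such reads too, was not tested.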
